A study of Dugesia japonica with 18 samples.

Results

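The response of cut Dugesia japonica to the first day was read by setting day 1 against day 0 in head, trunk and tail pieces. Dugesia japonica is a freshwater planarian, a flatworm that rebuilds missing body regions from small pieces. The comparison uses 6 of the 18 libraries of the study, which are all the libraries of those 2 days: head, trunk and tail at day 0, and head, trunk and tail at day 1. The other 12 libraries hold the same fragments at days 3, 5, 7 and 10. They enter the filter for tested unigenes, the scaling, the fit with its fragment block and spread, and a description of later levels. Each library is poly(A)-selected RNA pooled from the fragments of 10 to 20 animals. The labels give neither a strain nor a treatment, and do not say whether day 0 pieces were taken at once or after some hours. There is 1 library per fragment and day, so the fragments take the place of replicates, and every p-value rests on how far fragments deviate from a shared time course.

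Planarian regeneration runs on neoblasts, adult stem cells scattered through the mesenchyme, which are the only dividing somatic cells. In planarians, cutting is known to switch on a set of wound genes within hours in epidermis, muscle and neoblasts, among them transcription factors of the EGR, Fos, Jun and Runt families, followed by secreted regulators of body axes that muscle cells express. Damaged and newly made proteins are handled in all cells by cytosolic chaperones, by chaperones of the endoplasmic reticulum (ER) and by the proteasome.

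The 6 libraries held 17547716 to 19972820 counts each, so that 3 counts, taken here as the floor of detection, correspond to 0.150 to 0.171 CPM, the usual scale of counts relative to the library total. This floor, and the bounds taken from it, cover counting error only. Levels below are CPM scaled by edgeR's trimmed mean of M values (TMM), and compare 1 unigene (an assembled transcript group, with a Trinity-style identifier) between libraries, never 2 unigenes with each other. The fragment labels held up in region markers: summed CPM of the eye genes was 434 and 391 in the head (day 0, then day 1), against 150 to 153 in the other 4 libraries. Genes of posterior Wnt and Hox type summed to 1126 and 967 CPM in the tail and to 566 to 735 in the other 4. A unigene without a protein name took a large share of the counts, which moved from 26.2% to 13.0% in the head, from 21.9% to 22.5% in the trunk and from 49.6% to 41.2% in the tail. The TMM factors of head and tail moved with it, from 1.20 to 1.499 and from 0.685 to 0.839, while the trunk's were 1.07 and 1.06.

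On day 1, 86 of 23616 tested unigenes (0.364%) differed from day 0, of which 64 (0.271%) were higher and 22 (0.0932%) were lower (edgeR's quasi-likelihood test with the fragment as block, Benjamini-Hochberg adjusted p under 0.05 over all tested unigenes). The higher group held members of the HSP70 and HSP90 families, their helpers and 3 ER chaperones, wound-type transcription factors (early growth response, Runt, Jun and Fos) and 2 proteasome subunits. The lower group held contractile and cytoskeletal genes, Filamin-C and Paramyosin, a BMP-like ligand and several kinases. Of the 86, 84 moved the same way in all 3 fragments, which 32.1% of all tested unigenes did. In 71 of the 86 the day 1 libraries did not overlap the day 0 libraries, against 7.22% of all tested unigenes. Both of these counts draw on the same values as the calls, with the fragments as replicates, so they are high by selection. A change beyond 2-fold was fitted for 44 of the 86. With library totals in place of TMM the split was 76 higher and 7 lower, with the median of all tested unigenes moved to 0.196. At an unadjusted p under 0.05 the count was 2269 unigenes (9.61%). In bulk RNA, fewer cells of a type and less RNA per cell cannot be told apart, which holds for every lower and higher level below.

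The count of calls depended on single libraries. It was 15 without the tail pair, 18 without the tail day 0 library, 21 without the head day 0 library, 26 without the head pair, 32 without the tail day 1 library, 50 without the head day 1 library, 102 without the trunk day 1 library, 120 without the trunk pair and 154 without the trunk day 0 library. Of the 37 called unigenes named by rule, 7 kept their call in each of these 9 omissions: Heat shock cognate 71 kDa protein, Heat shock protein 83, DnaJ homolog subfamily B member 4, Early growth response protein 4, the Jun-type gene, Calreticulin and Filamin-C. Without the fragment as block, 9 unigenes were called.

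**Figure D1:**
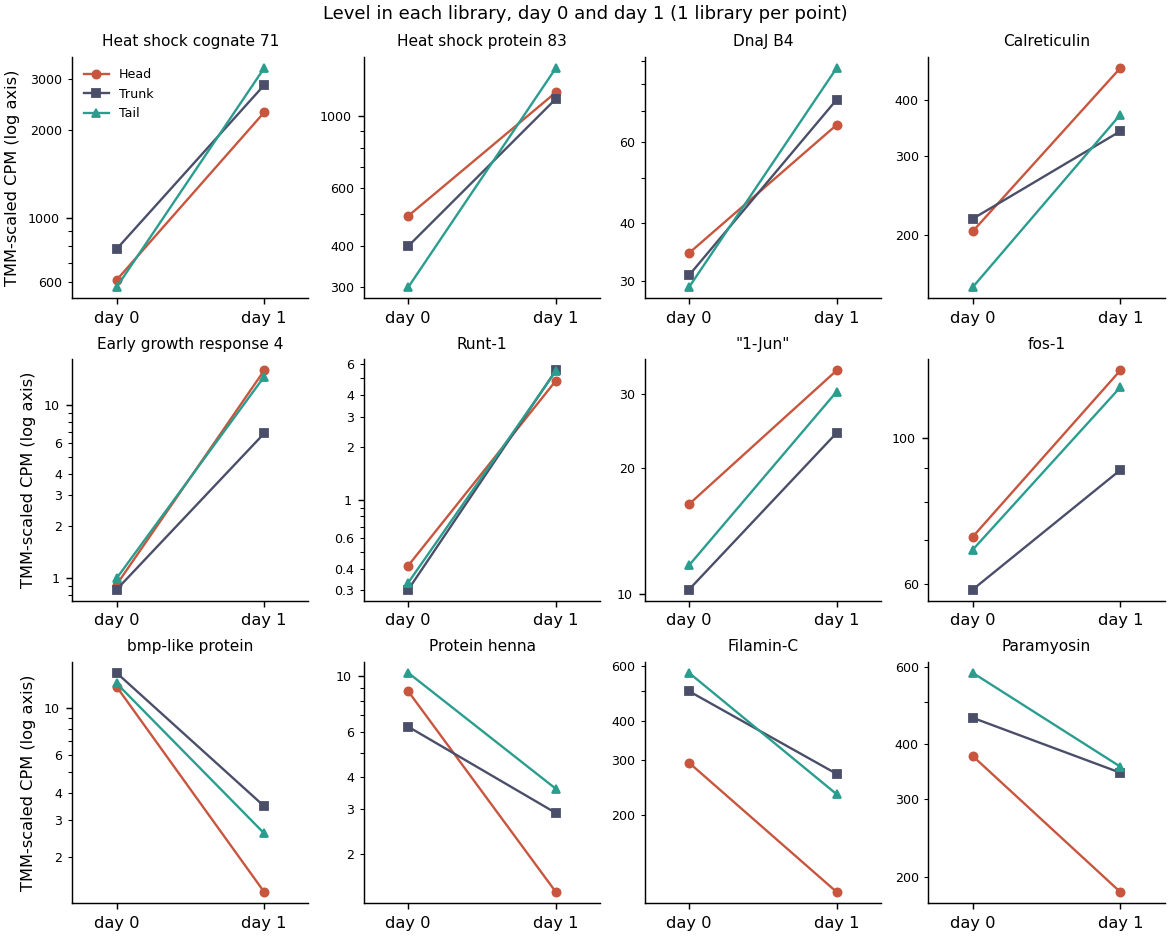
Level of 12 named unigenes in each of the 6 libraries (TMM-scaled CPM, log axis, 1 library per point, lines join day 0 and day 1 of a fragment). All lines of the upper 8 panels rise and all lines of the lower 4 fall, for example from 576 to 779 CPM up to 2305 to 3275 CPM for Heat shock cognate 71.

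Several cytosolic chaperones rose. Heat shock cognate 71 kDa protein (TRINITY_DN204_c0_g1), of the HSP70 family that binds unfolded stretches of protein, was at 609.5 CPM in the head, 779 in the trunk and 576 in the tail on day 0, and at 2305, 2862 and 3275 CPM on day 1. Every day 1 library lay above every day 0 library, with means of 655 ± 109 and 2814 ± 487 CPM (SD over the 3 fragments, n = 3). The fitted log2 fold change was 2.12 (SE 0.16, edgeR adjusted p = 4.75e-06). Reads of 2 other tested unigenes carry this protein name, and how near-identical copies shared reads in the counting is not known. Heat shock protein 83 (TRINITY_DN5658_c0_g1), of the HSP90 family, was at 494, 399 and 299 CPM in head, trunk and tail on day 0 and at 1182, 1129.5 and 1404 CPM on day 1. These groups did not overlap either, and the log2 fold change was 1.68 (SE 0.16, edgeR adjusted p = 3.28e-05).

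Helpers of these chaperones rose with them. DnaJ homolog subfamily B member 4 (TRINITY_DN3609_c1_g2), a J-domain protein that feeds clients to HSP70, was at 34.4, 30.8 and 29.0 CPM on day 0 and 65.3, 74.0 and 86.7 CPM on day 1, a log2 fold change of 1.26 (SE 0.14, edgeR adjusted p = 0.000297). Activator of 90 kDa heat shock protein ATPase homolog 2 (TRINITY_DN1554_c0_g1), which speeds the ATPase of HSP90, went from 11.97, 16.2 and 8.06 CPM to 29.2, 26.8 and 33.8 CPM, with a log2 fold change of 1.35 (SE 0.25, edgeR adjusted p = 0.031). In both genes each day 1 library was above each day 0 library. The co-chaperones Stress-induced-phosphoprotein 1, which bridges HSP70 and HSP90, and Peptidyl-prolyl cis-trans isomerase FKBP4, which binds HSP90, lie outside the naming rule and were chosen after their values were seen. Stress-induced-phosphoprotein 1 was at 53.4, 63.8 and 39.4 CPM on day 0 and 115, 99.2 and 105 CPM on day 1 (log2 1.04, SE 0.14, edgeR adjusted p = 0.00133). FKBP4 was at 26.3, 36.9 and 27.9 CPM and then at 62.5, 51.4 and 60.2 CPM (log2 0.95, SE 0.14, edgeR adjusted p = 0.00531).

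The chaperone list as a whole did not shift as these genes did. Of its 80 tested members, 7 rose and none fell (all tested unigenes: 0.271% and 0.0932%), while the median log2 change over the members was 0.06, beside -0.0008 over all tested unigenes. Of the members, 26 (32.5%) were higher in all 3 fragments and 14 (17.5%) lower in all 3, against 15.6% and 16.5% of all tested unigenes. For this and every list below, only unigenes with a protein name can be members. Of the 8233 such unigenes tested, 38 rose and 11 fell. Among them 54.1% had a log2 change above 0, 19.3% were higher in all 3 fragments and 16.7% lower in all 3. The count of 7 includes Endoplasmin and DnaJ homolog subfamily C member 3, both of the ER, and Heat shock protein homolog ECU03_0520 (TRINITY_DN24764_c0_g2), whose best protein match is the microsporidian Encephalitozoon cuniculi. That unigene had 0 counts in all 3 day 0 libraries and 187, 537 and 3 counts on day 1 in head, trunk and tail. It reached the filter of 3 libraries only with the trunk on day 7, at 7.96 CPM. Against the floor of 3 counts per library it was at least 52.7-fold higher in the head and at least 170.5-fold higher in the trunk, with no bound in the tail (edgeR adjusted p = 0.0463). Without the 3 members that match Encephalitozoon, 6 of 77 rose and the median was 0.049. The count of called members was 4 without the head pair and 3 without the fragment block, the tail pair, the head day 0 library or the tail day 0 library.

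Of the ER folding genes 3 rose, each with a higher level in all 3 fragments. Calreticulin (TRINITY_DN157_c0_g2), a lectin-type chaperone and calcium store of the ER, was at 204, 217 and 153 CPM in head, trunk and tail on day 0 and at 472, 341 and 371 CPM on day 1. Its groups did not overlap, with means of 191 ± 34.0 and 395 ± 68.6 CPM (SD, n = 3) and a log2 fold change of 1.04 (SE 0.13, edgeR adjusted p = 0.000898). Endoplasmin (TRINITY_DN2681_c0_g1), the HSP90 of the ER, went from 182, 189 and 139 CPM to 388, 278 and 314 CPM (log2 0.93, SE 0.15, edgeR adjusted p = 0.00807). Further tested unigenes carry the names Calreticulin (2) and Endoplasmin (1), and none of them is among the 3 ER genes called here. The third called ER member, Hypoxia up-regulated protein 1 (TRINITY_DN1128_c0_g1), an HSP70-type protein of the ER chosen after its values were seen, was at 42.7, 42.4 and 30.5 CPM and then at 74.3, 53.6 and 57.7 CPM (log2 0.69, SE 0.13, edgeR adjusted p = 0.0254). In all 3 genes the trunk had the smallest change. DnaJ homolog subfamily C member 3 (TRINITY_DN535_c1_g1), an ER co-chaperone counted in the cytosolic list and also chosen after its values were seen, rose by 0.87 on the log2 scale (SE 0.13, edgeR adjusted p = 0.00367).

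Among the 28 tested members of the list for ER folding and the unfolded protein response, 3 rose and none fell (all tested unigenes: 0.271% and 0.0932%). The median log2 change was 0.14, and 11 members (39.3%) were higher in all 3 fragments and 1 (3.57%) lower, against 15.6% and 16.5% of all tested unigenes. Its median was 0.22 in the head, 0.01 in the trunk and 0.24 in the tail. Summed CPM of the list was 2242, 2748 and 1923 in head, trunk and tail on day 0, and 3284, 3067 and 2664 on day 1. The smallest of these 3 steps was in the trunk. The list held 1 call without the head pair, the tail pair, the head day 0 or the tail day 0 library, the settings in which Endoplasmin lost its call, 2 without the head or the tail day 1 library, and 0 without the fragment block.

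The proteasome is the protease that degrades ubiquitin-tagged proteins. Of 28 tested members 2 rose and none fell (all tested unigenes: 0.271% and 0.0932%), 24 had a log2 change above 0 (49.9% of all tested unigenes did) and 20 (71.4%) were higher in all 3 fragments (15.6% of all tested unigenes were). The median log2 change was 0.27 over the fit and 0.43, 0.09 and 0.36 in head, trunk and tail. Proteasome subunit alpha type 6 (TRINITY_DN185633_c0_g1), of the core ring, was at 14.8, 19.7 and 13.4 CPM on day 0 and at 29.5, 26.5 and 23.9 CPM on day 1 (log2 0.74, SE 0.15, edgeR adjusted p = 0.035). The ATPase of the cap, 26S proteasome regulatory subunit 6A-A (TRINITY_DN7733_c0_g1), was at 26.6, 30.5 and 17.9 CPM and then at 47.1, 39.9 and 33.8 CPM (log2 0.69, SE 0.14, edgeR adjusted p = 0.0463). Both pairs of groups were apart. Neither call was kept when library totals replaced TMM, with or without the most abundant unigene, and each was kept in 2 of the 9 omissions, those of the trunk pair and the trunk day 0 library.

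Transcription factors of the wound type had the largest fitted changes among named genes detected on both days. Early growth response protein 4 (TRINITY_DN4276_c0_g1), a zinc finger factor of the immediate early class, was at 0.917, 0.860 and 0.998 CPM in head, trunk and tail on day 0 and at 15.8, 6.84 and 14.5 CPM on day 1. The lowest day 1 library, the trunk, lay far above the highest day 0 library, and the log2 fold change was 3.69 (SE 0.33, edgeR adjusted p = 2.52e-05). The Runt domain factor Runt-1 (TRINITY_DN14880_c0_g1), whose planarian relatives are wound-induced and act in the specification of new neurons in Schmidtea mediterranea, was at 0.417, 0.303 and 0.333 CPM and then at 4.83, 5.54 and 5.49 CPM. Its day 1 libraries were close together at 5.29 ± 0.395 CPM (SD, n = 3), the log2 fold change was 3.94 (SE 0.52, edgeR adjusted p = 0.00136), and the call was lost without the tail pair.

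The AP-1 factors, in which Fos and Jun proteins pair, moved unevenly. A unigene that the files name "1-Jun" (TRINITY_DN17848_c0_g1), a date-like spelling of a jun-1 type name, was at 16.4, 10.3 and 11.7 CPM on day 0 and 34.1, 24.2 and 30.4 CPM on day 1, with a log2 fold change of 1.22 (SE 0.14, edgeR adjusted p = 0.000332). Of the 2 unigenes named fos-1, TRINITY_DN5678_c2_g1 went from 70.7, 58.8 and 67.6 CPM to 127, 89.3 and 119 CPM (log2 0.75, SE 0.14, edgeR adjusted p = 0.0299). The other fos-1 unigene, TRINITY_DN5327_c1_g1, was at 34.2 ± 9.02 and 39.0 ± 6.18 CPM (SD, n = 3), and its groups overlapped (log2 0.22, SE 0.13, edgeR adjusted p = 0.651). Transcription factor jun-B (TRINITY_DN130787_c0_g1) was at 49.8 ± 3.84 CPM on day 0 and 50.9 ± 2.54 CPM on day 1 (log2 0.04, SE 0.10, edgeR adjusted p = 0.966). The called fos-1 lost its call in 7 of the 9 omissions, all but those of the head day 1 and the trunk day 0 library, and no called gene of this paragraph kept its call without the fragment block.

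These genes did not stand for their lists. Of 111 tested members of the immediate early and MAP kinase list, 3 rose and none fell (all tested unigenes: 0.271% and 0.0932%). The median log2 change was -0.08, and 33 members (29.7%) were lower in all 3 fragments and 15 (13.5%) higher, against 16.5% and 15.6% of all tested unigenes. Of 123 tested members of the wound-induced signal list, 1 rose (Runt-1), none fell and the median was -0.06. Follistatin and Wnt-1, wound-induced regulators in planarians, are names that no tested unigene carries. Palmitoleoyl-protein carboxylesterase NOTUM (TRINITY_DN14791_c0_g1), an enzyme that inactivates Wnt ligands and is induced at anterior-facing wounds in planarians, was at 3.42, 0.607 and 1.41 CPM in head, trunk and tail on day 0 and at 3.74, 4.58 and 13.6 CPM on day 1. The groups did not overlap by a narrow margin in the head, and the log2 fold change of 2.16 (SE 0.48) missed the threshold (edgeR adjusted p = 0.0909).

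Thyroid hormone receptor beta-A (TRINITY_DN15877_c0_g1), a nuclear receptor, was at 16.1, 17.2 and 20.7 CPM on day 0 and 43.5, 31.3 and 62.3 CPM on day 1, again with no overlap. Its log2 fold change was 1.29 (SE 0.18, edgeR adjusted p = 0.00236), and the call was lost without the tail pair. Another factor, cAMP responsive element binding protein-1 (TRINITY_DN147877_c0_g1), which was chosen after its values were seen, went from 20.7, 19.9 and 15.7 CPM to 37.01, 30.8 and 36.2 CPM (log2 0.88, SE 0.15, edgeR adjusted p = 0.0195).

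Secreted and membrane proteins were also among the higher genes. The secreted metalloproteinase with thrombospondin motifs gon-1 (TRINITY_DN15562_c0_g1), which in Caenorhabditis elegans remodels basement membrane, was at 7.09, 7.84 and 9.23 CPM on day 0 and 14.6, 13.2 and 17.9 CPM on day 1 (log2 0.92, SE 0.15, edgeR adjusted p = 0.00872). It was the 1 member called of 13 tested matrix metalloproteinases and inhibitors, which had a median of 0.05. The noggin like protein (TRINITY_DN4735_c2_g1), of a family of secreted BMP antagonists, was at 8.17, 3.24 and 5.99 CPM and then at 16.4, 6.41 and 12.4 CPM. Its day 0 head library lay above its day 1 trunk library, so the groups overlapped, yet the per-fragment changes lay between 0.96 and 1.04 on the log2 scale (log2 1.01, SE 0.19, edgeR adjusted p = 0.0289). It was the only call of 27 tested BMP and TGF-beta members, whose median was 0.00.

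A protease inhibitor of body fluids, alpha-2-macroglobulin (TRINITY_DN30131_c0_g1), was at 5.50, 3.19 and 1.25 CPM on day 0 and 14.6, 6.74 and 8.84 CPM on day 1 (log2 1.64, SE 0.31, edgeR adjusted p = 0.0289). The Sodium-dependent proline transporter (TRINITY_DN748_c0_g2) was at 2.21, 14.2 and 2.41 CPM and then at 19.9, 25.2 and 9.53 CPM (log2 1.94, SE 0.36, edgeR adjusted p = 0.0361). The trunk already stood at 14.2 CPM on day 0, above the tail on day 1. Among 73 tested lipid genes 2 rose and none fell (median 0.06). They were Long-chain-fatty-acid--CoA ligase 5, which activates fatty acids (TRINITY_DN6127_c0_g1, log2 0.98, SE 0.18, edgeR adjusted p = 0.0289), and Delta(24)-sterol reductase, which saturates the sterol side chain (TRINITY_DN11100_c0_g1, log2 1.14, SE 0.23, edgeR adjusted p = 0.0355). Day 0 and day 1 libraries of the reductase overlapped. Calls of these 4 genes and of noggin like protein were each lost in 7 or more of the 18 alternative settings.

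Chosen after their values were seen, 3 further genes widen the picture of what rose. Betaine--homocysteine S-methyltransferase 1 (TRINITY_DN6687_c0_g1), of the methionine cycle, went from 79.3, 79.3 and 48.0 CPM to 232, 121 and 128 CPM (log2 1.25, SE 0.19, edgeR adjusted p = 0.00813). Fascin (TRINITY_DN2001_c0_g1), which bundles actin filaments in cell protrusions, went from 94.3, 89.6 and 64.8 CPM to 222, 126 and 108 CPM (log2 0.84, SE 0.13, edgeR adjusted p = 0.00807). In both, the head was the highest library of day 1. A unigene without a protein name, TRINITY_DN5495_c0_g1, was at 142, 102 and 82.1 CPM on day 0 and at 1244, 1455 and 1892 CPM on day 1, a log2 fold change of 3.89 (SE 0.27, edgeR adjusted p = 1.13e-05).

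Genes that fell on day 1 included parts of the contractile apparatus. Filamin-C (TRINITY_DN104_c0_g1), an actin crosslinker of muscle, was at 294, 498 and 569 CPM in head, trunk and tail on day 0 and 114, 271 and 233 CPM on day 1, a log2 fold change of -1.19 (SE 0.14, edgeR adjusted p = 0.000332). Paramyosin (TRINITY_DN5075_c0_g1), the core of thick filaments in invertebrate muscle, went from 376, 459.5 and 581 CPM to 185, 345 and 356 CPM (log2 -0.73, SE 0.13, edgeR adjusted p = 0.0254). In both, all day 1 libraries were below all day 0 libraries. Further tested unigenes carry the names Filamin-C (1) and Paramyosin (3), and their values are not given here. Of 43 tested muscle list members 1 fell, Paramyosin, and 1 rose, Myosin light chain kinase (TRINITY_DN2278_c1_g1, log2 0.61, SE 0.12, edgeR adjusted p = 0.0301). The day 0 and day 1 libraries of this kinase overlapped, and its call was kept in 2 of the 9 omissions. Its name is carried by 1 other tested unigene, whose values are not given. The median of the muscle list was -0.37, with -0.49 in the head, -0.09 in the trunk and -0.31 in the tail, and 25 members (58.1%) were lower in all 3 fragments and 4 (9.3%) higher, against 16.5% and 15.6% of all tested unigenes. Titin (TRINITY_DN3935_c0_g1) and Twitchin (TRINITY_DN4419_c0_g2), giant proteins of the sarcomere chosen after their values were seen, had log2 fold changes of -0.74 (SE 0.16, edgeR adjusted p = 0.0711) and -0.54 (SE 0.13, edgeR adjusted p = 0.0941).

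Summed CPM of the muscle list went from 16788 to 10060 in the head, from 24809 to 21389 in the trunk and from 30877 to 24563 in the tail. The share of the most abundant unigene fell in head and tail with it, as given above. With library totals that left this unigene out, the median of the muscle list was -0.319, beside 0.047 over all tested unigenes. In that setting 2 members fell and 1 rose. The part of this unigene in the result was not tested further. The call of Paramyosin was lost with library totals in place of TMM and in 6 of the 9 omissions, those of every head or tail library and pair, while 10 members of the list fell without the trunk day 0 library, 4 without the trunk pair and 11 with no filter.

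Signals, enzymes and kinases made up the rest of the named genes that fell. The bmp-like protein (TRINITY_DN6173_c1_g2), of the BMP ligand family that sets the dorsal side in planarians, was at 12.6, 14.6 and 13.1 CPM on day 0 and 1.38, 3.47 and 2.59 CPM on day 1, far apart, with a log2 fold change of -2.62 (SE 0.47, edgeR adjusted p = 0.0278). Protein henna (TRINITY_DN19298_c0_g1), phenylalanine hydroxylase in Drosophila, went from 8.71, 6.32 and 10.3 CPM to 1.41, 2.89 and 3.60 CPM (log2 -1.75, SE 0.35, edgeR adjusted p = 0.0352). A replication-associated protein (TRINITY_DN237_c0_g1) whose best match is a small circular DNA virus was at 16.8, 23.1 and 20.0 CPM and then at 1.59, 9.73 and 6.12 CPM (log2 -2.05, SE 0.36, edgeR adjusted p = 0.0246). In each of these 3 the head was the lowest library of day 1 and the groups did not overlap.

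Polyadenylate-binding protein (TRINITY_DN6017_c0_g2), which binds the tails of mRNAs, was at 12.8, 14.1 and 13.9 CPM on day 0 and 6.70, 8.19 and 6.31 CPM on day 1 (log2 -0.94, SE 0.16, edgeR adjusted p = 0.0127). It was the 1 lower call of 91 tested translation factors and tRNA ligases, which had a median of 0.07. The kinases shk2, 17B and Rmil had log2 fold changes of -0.95 (SE 0.19), -0.90 (SE 0.16) and -0.77 (SE 0.15), with edgeR adjusted p of 0.0376, 0.02 and 0.0326. Day 0 and day 1 libraries of Rmil overlapped. Both tested unigenes named TATA-binding protein-associated factor 172, which takes TATA-binding protein off DNA, fell, by 0.72 (SE 0.12, edgeR adjusted p = 0.0156) and 0.63 (SE 0.12, edgeR adjusted p = 0.0353) on the log2 scale, the latter chosen after its values were seen. The groups of the first of these 2 unigenes overlapped. Leaving out the second of these 2, which was not refitted, each call of these genes and of bmp-like protein, Protein henna and the replication-associated protein was lost in 5 or more of the 9 omissions.

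Some calls rest on unigenes that were at 0 on 1 of the days. All 3 day 0 libraries were at 0 counts in 5 of the 86, and all 3 day 1 libraries in 1. The latter, TRINITY_DN22561_c0_g1, had 105, 90 and 139 counts in head, trunk and tail on day 0, so against the floor of 3 counts per library it was at least 41.4-, 31.5- and 61-fold lower on day 1. Of the 5, TRINITY_DN32_c0_g1 and TRINITY_DN134810_c0_g1 had counts in 1 of the 6 libraries, the tail on day 1, with 421 and 101 counts. Both reached the filter of 3 libraries only with later tail libraries, and held 3305 and 1034 counts in the tail on day 3.

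**Figure D2:**
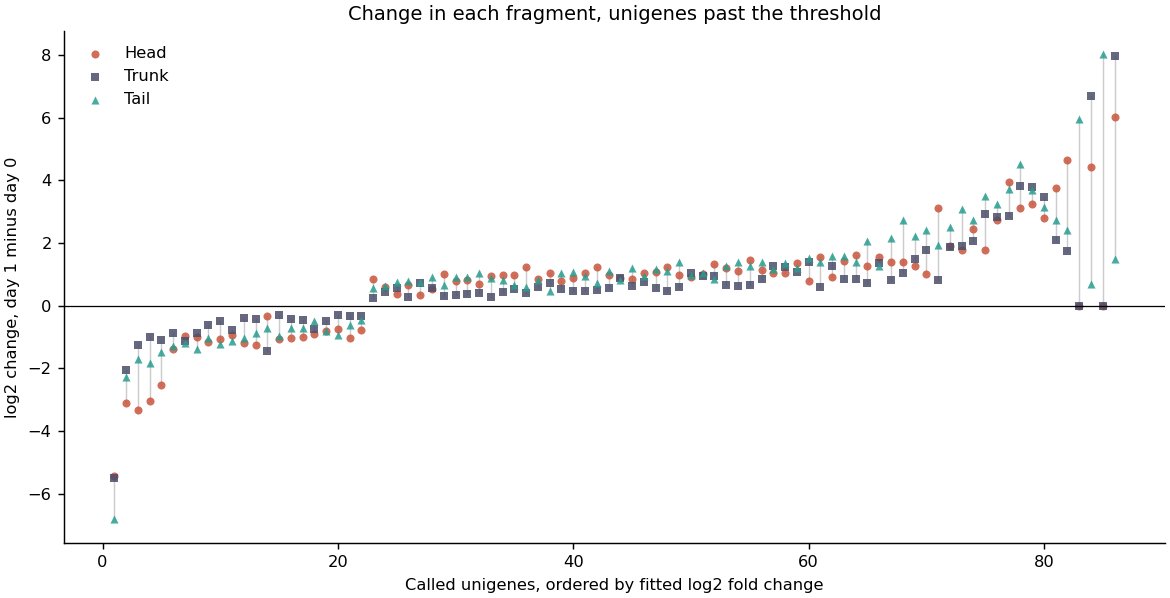
Change from day 0 to day 1 in each fragment (log2 difference of TMM-scaled CPM) for the 86 called unigenes, ordered by their fitted log2 fold change, with grey lines joining the 3 fragments of a unigene. The trunk point lies nearest to 0 for 58 of the 86.

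Steps were smaller in the trunk for most of the called unigenes. Among the 64 unigenes that rose, the median log2 change was 1.07 in the head, 0.734 in the trunk and 1.24 in the tail, and with unigenes at 0 set to their bound it was 1.071, 0.721 and 1.190. Among the 22 that fell it was -1.04, -0.686 and -1.03. The trunk had the smallest change of the 3 fragments in 58 of the 86 (40 that rose and 18 that fell), the head in 21 and the tail in 7, whereas over all tested unigenes the trunk was smallest in 42.9%, the head in 30.2% and the tail in 26.9%. The count for the trunk was 63 with library totals, 64 when those totals left out the most abundant unigene and 58 with DESeq2 size factors. With library totals, the trunk change minus the mean of head and tail had a median of -0.301 over all tested unigenes. It was -0.060 when the most abundant unigene was left out. The counts of 63 and 64 therefore include a shift of all unigenes, and shares over all tested unigenes were not computed there. Over all tested unigenes the SD of the log2 change was 0.671 in the head, 0.641 in the trunk and 0.761 in the tail.

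No single unigene passed the threshold for that difference. The test of the difference itself, the trunk's log2 change minus the mean of the other 2, called 0 of 23616 unigenes (0%), with 890 (3.77%) at an unadjusted p under 0.05 and a lowest adjusted p of 0.843 (edgeR). For the head the counts were 0 (0%) and 850 (3.6%), and for the tail 0 (0%) and 681 (2.88%). DESeq2 called 1, 7 and 2 unigenes for trunk, head and tail. Among the 86, an unadjusted p under 0.05 was found in 15 for the trunk, 14 for the head and 7 for the tail.

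Values of single genes show the size of these departures, none of them called. Calreticulin changed by 1.21, 0.65 and 1.28 in head, trunk and tail, a trunk departure of -0.59 (SE 0.23, edgeR adjusted p = 1). Stress-induced-phosphoprotein 1 departed by -0.62 (SE 0.25, edgeR adjusted p = 1) and FKBP4 by -0.70 (SE 0.25, edgeR adjusted p = 1). The Sodium-dependent proline transporter departed by -1.82 (SE 0.56, edgeR adjusted p = 1), and Early growth response protein 4 by -0.92 (SE 0.65, edgeR adjusted p = 1). By contrast, the trunk change of Runt-1, 3.79, lay above those of head and tail, 3.25 and 3.68.

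Outside the 86, the 5 named genes with the lowest trunk departure p were of mixed kind. A Pol protein of a type-1 retrotransposon (TRINITY_DN4531_c0_g1) was at 3.21, 5.97 and 1.75 CPM in head, trunk and tail on day 0 and at 5.64, 2.50 and 5.37 CPM on day 1 (departure -2.43, SE 0.50, edgeR adjusted p = 1). Nucleolin (TRINITY_DN1549_c0_g1), a protein of the nucleolus, was at 10.3, 15.8 and 5.99 CPM on day 0 and at 19.4, 11.2 and 11.9 CPM on day 1, so that head and tail were higher and the trunk lower (departure -1.44, SE 0.33, edgeR adjusted p = 1). Receptor-type tyrosine-protein phosphatase zeta (TRINITY_DN752_c0_g1) did the opposite, from 32.7, 17.3 and 29.3 CPM to 17.3, 22.4 and 22.0 CPM (departure 1.05, SE 0.26, edgeR adjusted p = 1). A unigene named Myosin heavy chain, striated muscle (TRINITY_DN4102_c0_g2) was at 42.9 CPM in the trunk on day 1 and at 0.0831 CPM or less in the other 5 libraries, and its fitted departure cannot be read. Cilia- and flagella-associated protein 45 (TRINITY_DN6861_c0_g1) did not exceed 1.96 CPM in any of the 6 libraries. For the head, NOTUM had the lowest p, with per-fragment changes of 0.13, 2.72 and 3.17 (departure -3.10, SE 0.66, edgeR adjusted p = 1). For the tail it was Palmitoyltransferase ZDHHC3-A (TRINITY_DN8412_c2_g3), at 4.92, 3.29 and 25.1 CPM on day 0 and 7.90, 6.98 and 4.99 CPM on day 1 (departure -3.24, SE 0.50, edgeR adjusted p = 0.226).

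In some stem cell and replication genes head and tail were higher on day 1 and the trunk lower, in values that did not pass a test. That pattern was seen in 5 of 7 tested Piwi unigenes, 1 of 2 unigenes of proliferating cell nuclear antigen and 6 of 7 MCM unigenes. Piwi-like protein 1 (TRINITY_DN2453_c0_g1), of the Piwi proteins that mark neoblasts, was at 64.4, 228 and 80.1 CPM in head, trunk and tail on day 0 and at 148, 185 and 149.9 CPM on day 1. The trunk was by far the highest library on day 0, and on day 1 the 3 fragments lay close together (day effect log2 0.53, SE 0.32, edgeR adjusted p = 0.672; trunk departure -1.34, SE 0.54, edgeR adjusted p = 1). Piwi-like protein 2 (TRINITY_DN3080_c0_g1) was at 184, 345 and 156 CPM and then at 344, 293 and 198 CPM. Piwi-like protein Ago3 (TRINITY_DN643_c0_g1) was at 139, 227 and 131 CPM and then at 192, 196 and 165 CPM (trunk departure -0.62, SE 0.21, edgeR adjusted p = 1). The 4 other Piwi unigenes did not exceed 3.74 CPM, and the pair among them without the pattern changed by 0.09, 0.94 and -0.31 (TRINITY_DN19200_c0_g1) and by -0.70, -0.85 and 0.79 (TRINITY_DN35174_c0_g1) on the log2 scale in head, trunk and tail.

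Proliferating cell nuclear antigen (TRINITY_DN17885_c0_g1), the sliding clamp of DNA polymerase, went from 19.0, 53.7 and 22.5 CPM to 35.7, 48.5 and 38.8 CPM, lower in the trunk alone. Its second unigene (TRINITY_DN23406_c0_g1) was higher in all 3 fragments, from 3.71, 13.4 and 7.48 CPM to 6.53, 14.9 and 11.4 CPM. Of the 7 tested unigenes of the MCM helicase, which unwinds DNA at replication forks, all but TRINITY_DN1690_c0_g1 were higher in head and tail and lower in the trunk. MCM5 (TRINITY_DN4883_c0_g1), for instance, was at 5.75, 28.7 and 9.98 CPM on day 0 and 15.0, 20.1 and 14.8 CPM on day 1, and MCM4 (TRINITY_DN6895_c0_g1) at 8.30, 49.0 and 21.1 CPM and then at 16.1, 37.1 and 38.9 CPM. None of the 7 was called.

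Across the DNA replication list, 0 of 33 tested members were called in either direction, 4 had an unadjusted p under 0.05, and the median log2 change was 0.65 in the head, -0.13 in the trunk and 0.53 in the tail. The trunk was the highest fragment in 28 of the 33 on day 0 and in 18 on day 1, against 33.4% and 28.9% of all tested unigenes. In 15 of the 33, head and tail were higher and the trunk lower, as in 13% of all tested unigenes. The median ratio of the highest to the lowest fragment went from 1.97 to 1.59, beside 1.58 and 1.55 over all tested unigenes (levels with 0.5 CPM added). For the 21 tested stem cell and germline factors, 0 called, the medians were 0.38, -0.08 and 0.34, the trunk was highest in 15 and then in 9, and that ratio went from 1.97 to 1.3. The fitted median of these factors, 0.225, ran from 0.137 without the head pair to 0.371 without the trunk pair. Summed CPM of the stem cell list was 1312, 1970 and 1239 on day 0, and 1822, 1802 and 1503 on day 1.

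**Figure D3:**
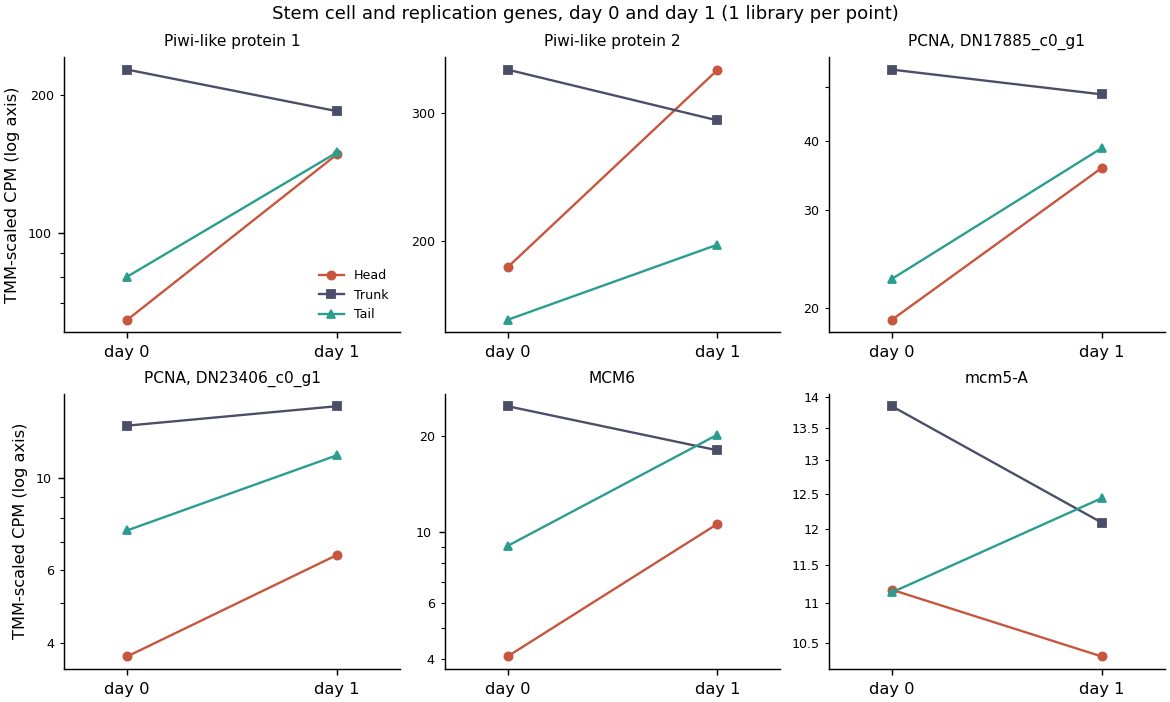
Level of 6 stem cell and replication unigenes in each of the 6 libraries (TMM-scaled CPM, log axis, 1 library per point). The trunk is the highest fragment on day 0 in every panel; its line slopes down and those of head and tail slope up in 4 panels, for Piwi-like protein 1 from 228 to 185 CPM in the trunk and from 64.4 to 148 CPM in the head, but not for PCNA DN23406_c0_g1 or mcm5-A.

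Several other lists had no call. Genes of glycolysis and gluconeogenesis had a median of -0.31 over 33 tested members, 14 (42.4%) lower in all 3 fragments and 5 (15.2%) higher (all tested unigenes: 16.5% and 15.6%), with 0 called and 12 at an unadjusted p under 0.05. The pharynx and gland list had a median of 0.44 over 19 members, at 0.44 in the head, 0.00 in the trunk and 0.42 in the tail, with 0 called and 3 at an unadjusted p under 0.05. Innate immunity and phagocyte genes had a median of 0.10 and 27 of 33 members above 0, with 0 called and 5 at an unadjusted p under 0.05. Summed CPM of this list nevertheless fell, from 2528 to 2448 in the head, from 4975.5 to 4585 in the trunk and from 6096 to 4465 in the tail. The 285 neuronal genes, with a median of 0.05, the 118 genes of motile cilia, with -0.03, and the 45 of the respiratory chain and citrate cycle, with -0.05, had 0 called and 18, 6 and 5 at an unadjusted p under 0.05.

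The study follows m6A, a methylation of adenosine in mRNA, and no gene that writes or reads it was called on day 1. N6-adenosine-methyltransferase METTL3, the catalytic writer (TRINITY_DN30538_c0_g1), had a log2 fold change of -0.22 (SE 0.15, edgeR adjusted p = 0.712). The 5 tested unigenes named as YTH domain-containing family proteins, which read the mark, had log2 fold changes of 0.09 to 0.20 and edgeR adjusted p from 0.634 to 0.918. Of the 10 tested members of the m6A list 0 were called, 1 had an unadjusted p under 0.05, and the median was 0.10.

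**Figure D4:**
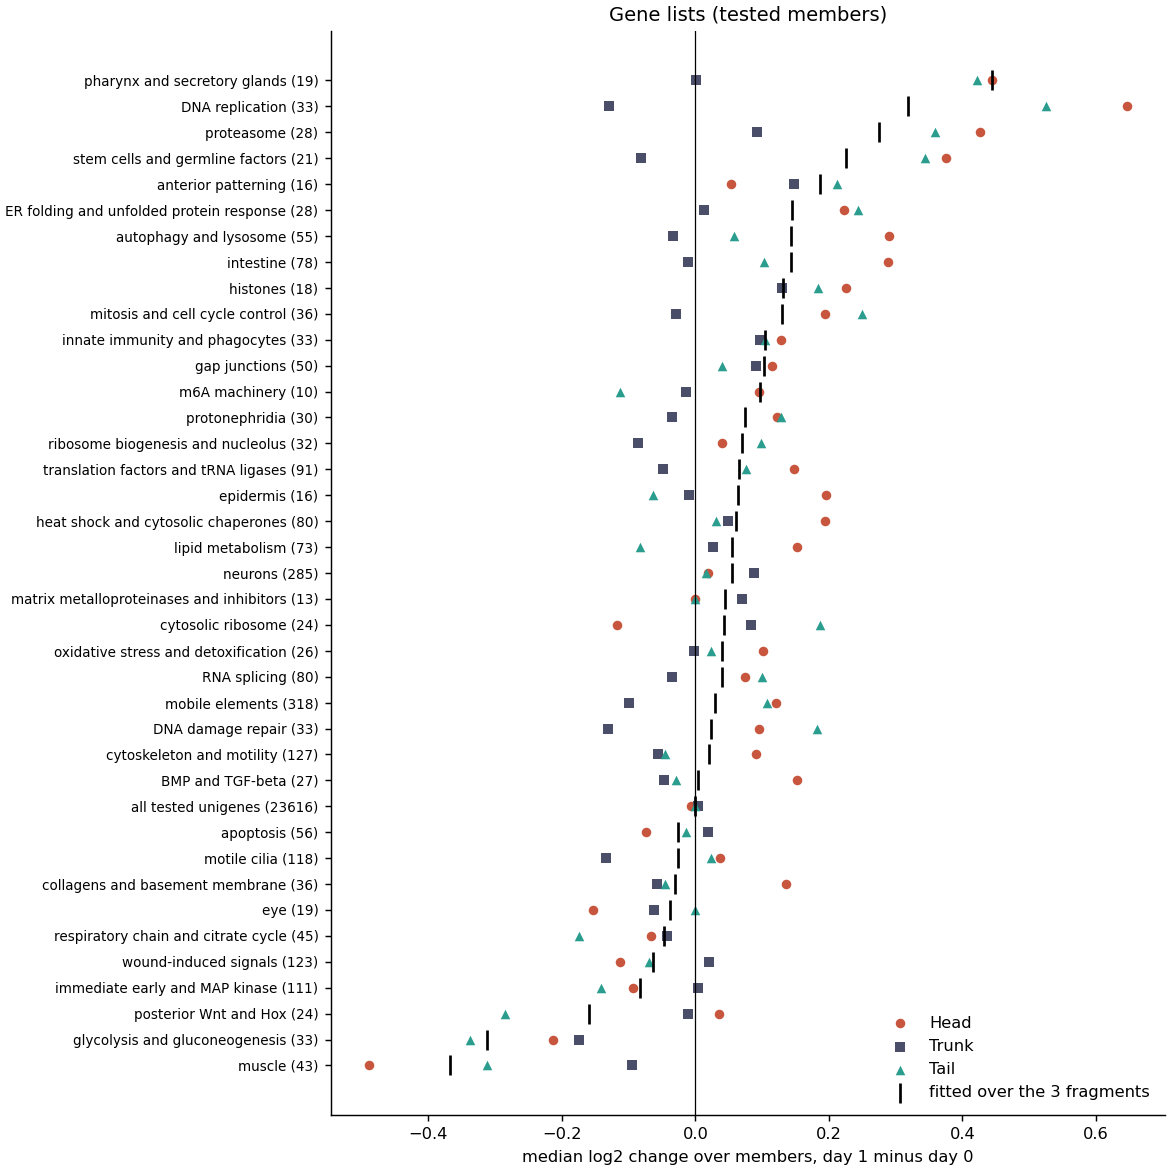
Median log2 change over the tested members of each list (number in brackets) in head, trunk and tail, with a black bar for the median of the fit over the 3 fragments. The widest gaps between the trunk and the other fragments are in DNA replication (0.65, -0.13 and 0.53 in head, trunk and tail) and in stem cell factors (0.38, -0.08 and 0.34). The gap in the pharynx and gland list is close to that of the stem cell factors (0.44, 0.00 and 0.42).

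Levels at later days show how long the day 1 levels lasted. They share the day 0 libraries with the comparison above, and the members were chosen on days 0 and 1, so they are given as levels with no test. Heat shock cognate 71 kDa protein averaged 2814 CPM on day 1 and 528, 628, 497 and 929.9 CPM on days 3, 5, 7 and 10, next to 655 CPM on day 0. Early growth response protein 4 averaged 12.4 CPM on day 1 and then 2.84, 1.72, 0.933 and 1.11 CPM. In both, the means of days 3 to 10 were far below the day 1 mean, whereas the unigene named 1-Jun averaged 29.6 CPM on day 1 and then 24.0, 20.5, 17.9 and 12.5 CPM, next to 12.8 CPM on day 0.

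Genes that fell were mostly still below day 0 at later days. Filamin-C averaged 454 CPM on day 0 and 206 CPM on day 1, then 149.7, 213, 239 and 256 CPM, and bmp-like protein averaged 13.4 and 2.48 CPM, then 0.574, 1.25, 1.81 and 1.98 CPM. Neither mean was back at its day 0 level by day 10. Over the 64 unigenes that rose, the median log2 level relative to day 0 was 1.04, 0.596, 0.368, 0.326 and 0.213 on days 1, 3, 5, 7 and 10. Over the 22 that fell it was -0.875, -0.874, -0.694, -0.689 and -0.570. On day 10, 23 of the 64 were above day 0 in all 3 fragments, and 21 of the 22 were below it in all 3. Both counts use the day 0 values that also chose the members, which favours them. The share over all tested unigenes was not computed.

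**Figure D5:**
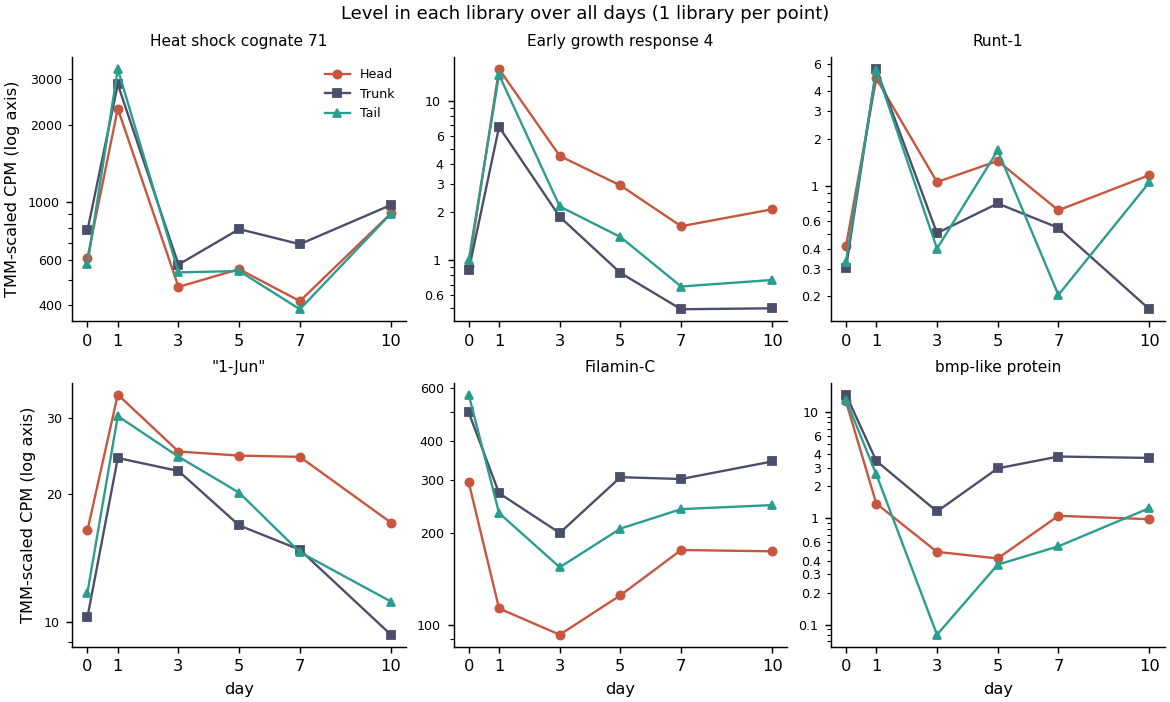
Level of 6 named unigenes in head, trunk and tail over all days (TMM-scaled CPM, log axis, 1 library per point). Heat shock cognate 71, Early growth response 4 and Runt-1 peak on day 1, while Filamin-C and bmp-like protein remain below their day 0 means of 454 and 13.4 CPM through day 10.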

How the data were processed

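Messenger RNA of head, trunk and tail pieces was sequenced at 6 time points, 1 library each. The submitters' processing notes name FastQC, fastp 0.20.0, Bowtie2 and RSEM, and counts per unigene were deposited by the authors as whole numbers for 267235 assembled unigenes with their protein matches. No build or strand setting is given in the sources used here. A further 18 columns of per-sample values were not used. From the counts, the 23616 unigenes that reached 1 CPM in 3 or more of the 18 libraries were kept, scaled by TMM and tested with edgeR 4.0.16 (R 4.3.3; quasi-likelihood, robust) with fragment and day as factors over all 18 libraries (10 residual degrees of freedom). A departure is 1 added column, the difference of a fragment's log2 change from the mean of the others (9 degrees of freedom). SE is the log2 fold change divided by the root of F. Per-fragment changes are differences of log2 CPM with a prior count of 2. The design pairs day 1 and day 0 by fragment, and the fragment is the block.

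Lists were matched by protein name, of which 149 matches were dropped by name. They and the members were chosen with earlier results of these data known. Values given for a gene are those of the unigene printed. Beyond cases named above, other tested unigenes carry the names Sodium-dependent proline transporter (2), shk2 (2), 17B (2) and Rmil (1). The same holds for Polyadenylate-binding protein (1), Protein henna (1), replication-associated protein (1), gon-1 (1) and Delta(24)-sterol reductase (1). Named genes, 69 by rule, are the 10 highest and 10 lowest called genes with a protein name, the same sign in all fragments and a mean of at least 2 CPM, up to 2 called members per list and direction, a set of wound, stem cell and m6A genes, the 5 lowest departure p per fragment among genes not called, and unnamed unigenes with the largest changes. Alternatives were other scalings and filters, DESeq2 1.42.0, the 6 libraries alone, no block, and omission of libraries and pairs. Nothing states that libraries of a day came from separate animals. If they share a pool, pool and day cannot be told apart, and the p-values do not measure the spread between pools.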

Additional observations from a re-analysis of the deposited data

How the results depend on the processing

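The count of 86 unigenes that differed between day 1 and day 0 (64 higher, 22 lower) became 223 (157 and 66) in a fit of the 6 libraries alone, 423 (280 and 143) with no filter, 222 (148 and 74) with DESeq2's Wald test and 9 (8 and 1) without the fragment as replicate block. Of the 86, 76, 84, 80 and 9 were called there. It was 83 with library totals, where 7 were lower, and 81 to 88 with other scalings and filters. Over the omissions of a library or pair it ranged from 15 to 154, with 14 to 82 higher and 1 to 75 lower; the cause was not tested. The trunk departure, 0 in the main design, had 34 calls (13 and 21) in the 6 libraries, with 1 residual degree of freedom, 27 (18 and 9) with no filter, 1 (1 higher) with DESeq2 and 1 (1 higher) against the head alone. The head departure had 57 (27 and 30), 28 (13 and 15), 7 (3 and 4) and, against the trunk alone, 1 (1 lower). The tail departure had 96 (39 and 57), 20 (9 and 11) and 2 (1 and 1). All 3 were at 0 under the other settings. No called gene named by rule reversed its direction under any setting. Unigenes under 0.150 to 0.171 CPM are below the floor of 3 counts.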

Other observations

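Day 1 libraries held transcripts whose best protein match is the microsporidian parasite genus Encephalitozoon. There were 178 such unigenes with counts, 10 of them tested, and 177 were at 0 in all 3 day 0 libraries. Their summed counts were 1, 0 and 0 in head, trunk and tail on day 0 and 1499, 3908 and 17 on day 1, which is 79.3, 199.5 and 0.901 CPM by library total. Only the trunk on day 7, with 1336 counts or 75.6 CPM, came near these levels among the later libraries, where the other 11 held 32 counts or fewer. The spore wall and anchoring disk complex protein EnP1 (TRINITY_DN18935_c0_g1), a structural protein of the microsporidian spore, had 107, 251 and 2 counts in head, trunk and tail on day 1. Of the 86 called unigenes 1 matches this genus, Heat shock protein homolog ECU03_0520. A called unigene without a protein name, TRINITY_DN89408_c0_g1, was also at 0 counts on day 0. It had 60, 221 and 1 counts in head, trunk and tail on day 1, and its origin was not tested. These unigenes were chosen after the data had been seen.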
